A study of Homo sapiens with 12 samples.

Results

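Glucose enters a cell through transporters of the SLC2A family and is broken down to pyruvate by the enzymes of glycolysis. Hexokinases trap it as glucose 6-phosphate, phosphofructokinase commits it to breakdown, enolase makes phosphoenolpyruvate near the end of the pathway, and lactate dehydrogenase turns pyruvate into lactate. PFKFB enzymes make and remove fructose 2,6-bisphosphate, the main activator of phosphofructokinase. PDK enzymes phosphorylate pyruvate dehydrogenase and so restrain the oxidation of pyruvate in the mitochondrion. Keratinocytes of the epidermis, a tissue without blood vessels of its own, are known for taking up glucose through SLC2A1 and for making much lactate, and many of these genes are textbook targets of the hypoxia-inducible factor. Described here are 10 genes of this pathway, matched by name among the 58735 genes of the count table: SLC2A1, HK1, HK2, PFKP, PFKFB3, PFKFB4, ENO1, ENO2, LDHA and PDK1. Each name matched 1 row, and all 10 passed the filter on low counts.

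The levels come from bulk RNA sequencing of N/TERT-2G cells, an immortalised human keratinocyte line, in 12 libraries that form 4 groups of 3. All wells of the 6-well plates received 100 pmol of siRNA with 5 µl of a lipid transfection reagent, and the medium was changed after 6 h, so the controls were transfected as well. The control group received a negative control siRNA, and the others an siRNA against ATF3, a stress-induced transcription factor, against APOE, a lipid carrier, or against CXCL14, an epithelial chemokine. The labels of the series, which concerns lichen sclerosus, do not give the siRNA sequences, the time of harvest or whether replicates were separate cultures, so p-values measure only the spread between these libraries, which may be technical.

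Total counts ran from 16225691 to 22246755 per library. A count of 0 would allow up to 0.135 to 0.185 CPM (counts scaled to the library total), from 3 counts and for counting error only. Levels below are CPM scaled by TMM with the SD over n = 3 libraries. Differences between groups are edgeR log2 fold changes ± SE with p adjusted over 14920 genes, and rose and fell stand for an adjusted p under 0.05. Each targeted transcript was lower with its own siRNA: ATF3 by -1.81 ± 0.08, APOE by -4.02 ± 0.35 and CXCL14, which had few counts, by -3.61 ± 1.16 (edgeR adjusted p = 0.0143, called in 10 of 14 alternatives). With its own siRNA APOE was at 0.106 to 0.274 CPM and CXCL14 at 0 to 0.0545 CPM. These levels lie near or below what a count of 0 would allow, so the size of both falls is uncertain. Some targets also lay apart from the control with other siRNAs. CXCL14 averaged 0.49 ± 0.169 CPM in the control and 8.56 ± 4.06 with APOE siRNA. With CXCL14 siRNA, ATF3 averaged 68.3 CPM against 42.2 in the control, and APOE 5.88 against 3.18. ATF3 was at 41.9 CPM with APOE siRNA, where its range overlapped that of the control. With ATF3 siRNA, APOE was at 3.88 and CXCL14 at 0.819 CPM, and both overlapped the control. The 8 keratinocyte markers (KRT5, KRT14, TP63 and others) were all detected, with summed levels of 31230 to 33758 CPM in the control, 31912 to 33782 with ATF3 siRNA, 38296 to 40219 with APOE siRNA and 22467 to 22973 with CXCL14 siRNA. Summed levels of markers of other cell types were far lower. Those of immune, endothelial and fibroblast markers differed between some groups. The 6 immune markers summed to 2.14 to 3.20 CPM in the control, 2.52 to 4.89 with ATF3 siRNA, 5.62 to 5.90 with APOE siRNA and 1.03 to 1.52 with CXCL14 siRNA, with PTPRC, CD3E and LYZ at 0 and 5 of the 6 under a mean of 1 CPM. The 4 endothelial markers, all under a mean of 1 CPM, summed to 0.308 to 0.616 CPM in the control, 0.640 to 0.727 with ATF3 siRNA, 0.567 to 0.957 with APOE siRNA and 1.47 to 1.64 with CXCL14 siRNA. The 6 melanocyte markers summed to 1.22 to 2.68 CPM over all libraries, with TYR at 0, and their sums overlapped between all groups. Of 7 fibroblast markers 6 had means under 1 CPM. Their sum, nearly all COL1A1, was 25.7 to 34.0 CPM in the control, 31.8 to 39.2 with ATF3 siRNA, 72.2 to 85.9 with APOE siRNA and 15.6 to 18.7 with CXCL14 siRNA. The part of these shifts in the results below was not tested. In bulk RNA, fewer cells with a transcript and less transcript per cell cannot be told apart.

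The hypoxia-inducible factor is known to bind at the core ACGTG, so that core, on either strand, was looked for in the promoters of the 10 genes. RefSeq windows from 250 bases before to 50 after each annotated start (GRCh38.p14) were found for all 10, 23 windows in all. The core stands in 7 of the 23 windows, belonging to HK2, PFKP, PFKFB3, ENO2, LDHA and PDK1, and in 21.4% of all 35116 windows of the table. The palindrome CACGTG, which contains the core on both strands, stands in 3 of them, of HK2, PFKFB3 and LDHA, against 7.26% of all windows. The windows of SLC2A1, HK1, PFKFB4 and ENO1 do not hold these letters, which says nothing of sites elsewhere or of binding. The matches below are those nearest to an annotated start of each gene, with a further match for LDHA. They are matches of letters, and binding was not tested. Those of PFKFB3 from -107 and LDHA from -86 lie within CACGTG. Capitals mark the core, read as CACGT where it lies on the other strand.
HK2, chr2:74834067-74834095, plus strand, core from -48: aatgggcgtgcgCACGTcactgatccgga
PFKP, chr10:3069038-3069066, plus strand, core from -139: ccacgagcgcctACGTGatgcccggcccg
PFKFB3, chr10:6202813-6202841, plus strand, core from -107: accctcctccccACGTGgaagggggctgg
ENO2, chr12:6914450-6914478, plus strand, core from -118: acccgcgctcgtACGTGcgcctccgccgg
LDHA, chr11:18394465-18394493, plus strand, core from -86: agcccgactcacACGTGggttcccgcacg
LDHA, chr11:18394478-18394506, plus strand, core from -73: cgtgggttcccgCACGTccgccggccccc
PDK1, chr2:172556070-172556098, plus strand, core from -8: cgccacgtccctCACGTaccactcggcag
In LDHA and PDK1 a further match lies close by, from -86 and -17, whereas the ENO2 window holds 1 match. Which starts these cells use was not tested.

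In the control cells the 10 transcripts spanned a wide range of levels per length, given as the authors' FPKM (fragments scaled by gene length and library total). Order among genes on this scale depends on the length used for each gene, from 4281 bases for ENO2 to 14883 for PDK1. Which transcripts these cells use was not tested. ENO1, the common enolase, stood at 376 ± 4.05 FPKM, above 99.6% of tested genes. LDHA, which makes lactate, at 163 ± 10.1 FPKM, and SLC2A1, the main glucose transporter of keratinocytes, at 152 ± 7.69 FPKM, followed, and these neighbours differed by about their spread. PFKP, the platelet-type phosphofructokinase, stood at 70.1 ± 2.47 FPKM, ahead of the hexokinases HK1 (33.2 ± 0.91) and HK2 (28.3 ± 0.455). The regulatory enzymes were lower, with PFKFB3 at 10.2 ± 0.388, PFKFB4 at 4.42 ± 0.223 and PDK1 at 1.11 ± 0.118 FPKM. ENO2, the enolase known best from neurons, was lowest at 0.699 ± 0.088 FPKM, above 20.7% of tested genes. Together the 10 genes took 0.46 to 0.464% of the counts in the control libraries, 0.473 to 0.502% with ATF3 siRNA, 0.481 to 0.509% with APOE siRNA and 0.484 to 0.508% with CXCL14 siRNA. The ranges of all 3 targeting groups lie above that of the control, as shares of raw counts without TMM scaling. TMM factors were 1.04 to 1.07 with CXCL14 siRNA and 0.995 to 1.01 in the control, so that scaling lowers the CXCL14 siRNA shares relative to the control. On the TMM scale CXCL14 siRNA library 1 lies below all control libraries, so that group no longer lies above the control. Factors of 0.963 to 0.996 with ATF3 siRNA and 0.945 to 0.979 with APOE siRNA move those shares the other way. These shares weigh each gene by its counts, and ENO1 had the most (2008 CPM on average in the control). They do not show a rise of the 10 as a set.

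No single direction held for the 10 genes in any comparison with the control. With APOE siRNA 3 rose and 2 fell; of all tested genes 44.8% were called, 22.3% higher and 22.5% lower. The groups' CPM ranges did not overlap for 7 of the 10, against 54.4% of tested genes. With CXCL14 siRNA 2 rose and 2 fell, against 55.8% called, 27.4% higher and 28.4% lower, and ranges were apart for 5, against 62.1%. With ATF3 siRNA 2 rose and 2 fell, against 20.4% called, 11.2% higher and 9.14% lower, and ranges were apart for 5, against 35.2%. The share of the 10 called was near the background with APOE siRNA, below it with CXCL14 siRNA and above it with ATF3 siRNA. With only 10 genes such shares rest on few calls, and their difference from the background was not tested. The ATF3 siRNA calls include PFKP, which was at the threshold. Over the alternative fits, 3 to 5 of the 10 were called with ATF3 siRNA (3 with library size alone, 5 with the replicate block). With APOE siRNA 4 to 5 were called, and with CXCL14 siRNA 3 to 6. The 6 came with library size alone, where 8516 of 14920 genes were called, so that share was not below the background. The median log2 fold change of the 10 was -0.09 with APOE siRNA, 0.03 with CXCL14 siRNA and 0.05 with ATF3 siRNA, against 0.01, 0.01 and 0.00 over all tested genes. The 3 comparisons share their control libraries. At least 1 call was made for 9 of the 10 genes and for 72.5% of all tested genes, and LDHA had none. None of the 10 was called in all 3 comparisons, as were 10.4% of tested genes.

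**Figure D1:**
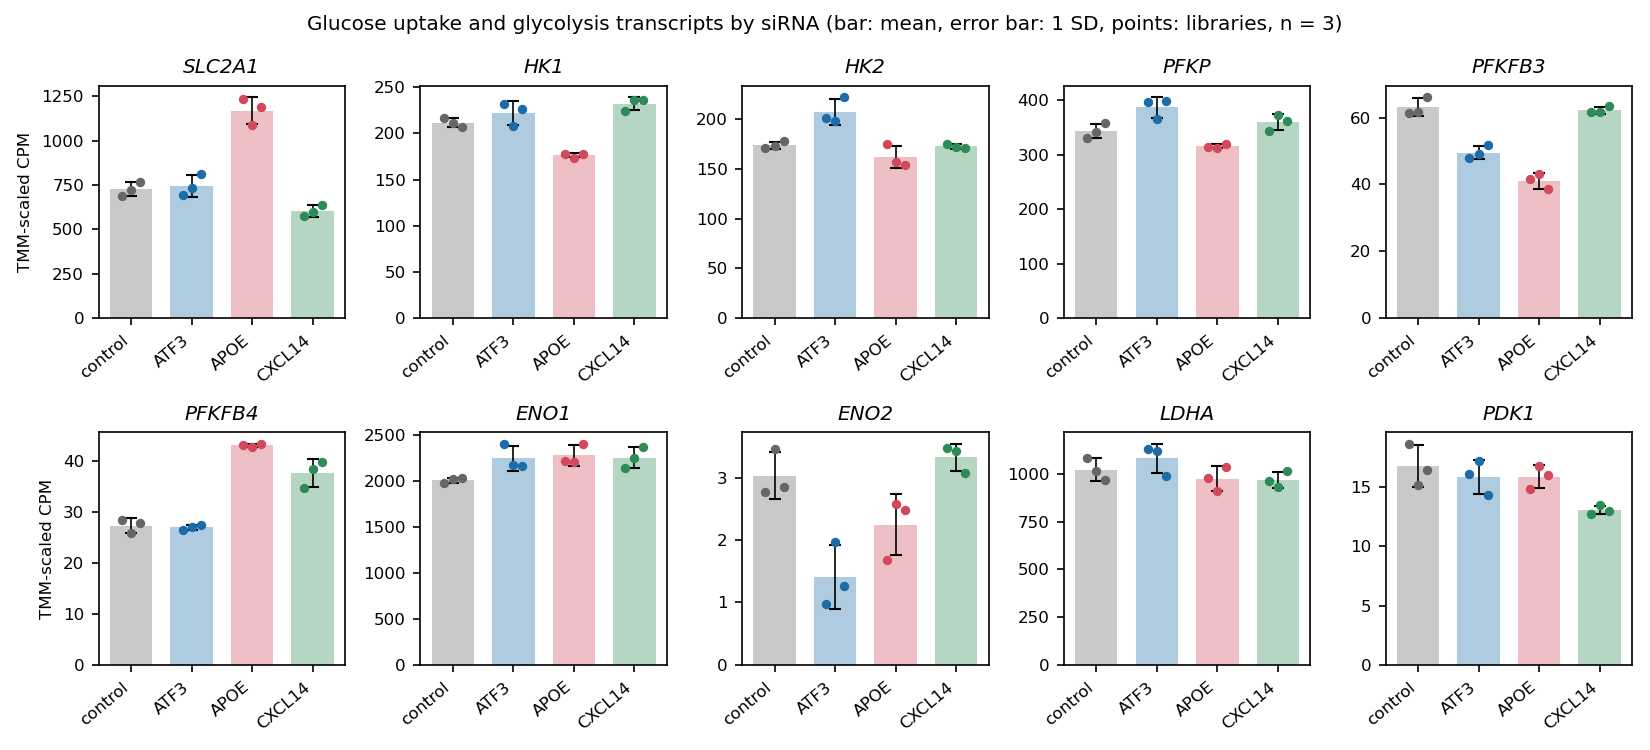
TMM-scaled CPM of the 10 transcripts in the 4 siRNA groups (bar, mean; error bar, 1 SD; points, the 3 libraries of a group; each panel has its own axis from 0). SLC2A1 and PFKFB4 are highest with APOE siRNA (1170 and 43.2 CPM on average), PFKFB3 is lowest there (41.0 CPM), ENO2 is lowest with ATF3 siRNA (1.40 CPM), and the 4 groups of LDHA lie close together.

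SLC2A1 (ENSG00000117394, chromosome 1, 42925375 to 42959176, minus strand, hg38), which carries glucose across the plasma membrane, was the member that differed most between the APOE and CXCL14 siRNA groups. Its control libraries held 689, 719 and 768 CPM, against 692, 731 and 812 with ATF3 siRNA, 1234, 1086 and 1188 with APOE siRNA, and 575, 599 and 638 after the CXCL14 siRNA. All APOE siRNA libraries lie above, and all CXCL14 siRNA libraries below, every other library, whereas the control and ATF3 siRNA groups overlap. SLC2A1 rose with APOE siRNA by 0.69 ± 0.07 (1.61-fold, edgeR adjusted p = 1.43e-06) and fell with CXCL14 siRNA by -0.26 ± 0.07 (adjusted p = 0.00584). With ATF3 siRNA its difference was 0.04 ± 0.07 (adjusted p = 0.761). The difference between APOE and CXCL14 siRNA was 0.95 ± 0.07 (1.94-fold, adjusted p = 1.64e-08), and SLC2A1 was also higher with ATF3 than with CXCL14 siRNA (0.30 ± 0.07, adjusted p = 0.00237; 0.20 with library size alone). The order was therefore APOE, then ATF3 and control, which did not differ beyond their spread, then CXCL14.

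The hexokinases, which phosphorylate incoming glucose, moved in different groups. HK1 (ENSG00000156515, chromosome 10, 69269984 to 69401884, plus strand) is the widely expressed form. It measured 217, 212 and 207 CPM in the control, 232, 208 and 227 with ATF3 siRNA, 178, 174 and 178 with APOE siRNA, and the CXCL14 siRNA libraries held 224, 237 and 236. The APOE siRNA libraries lie below all others. HK1 fell there by -0.26 ± 0.06 (edgeR adjusted p = 0.0017). With CXCL14 siRNA it did not pass at 0.13 ± 0.06 (adjusted p = 0.0607), although the libraries lie above the control; that difference passed with library size alone (0.0051), a stricter filter (0.0214) and limma on log2(FPKM + 1) (0.0369) or log2(FPKM + 0.1) (0.0386), and in the fit described with the replicate numbers in the closing section. With ATF3 siRNA HK1 stood at 0.07 ± 0.06 against the control (adjusted p = 0.432). From CXCL14 through ATF3 siRNA to the control, neighbours in the order of HK1 levels did not pass.

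HK2 (ENSG00000159399, chromosome 2, 74833981 to 74893359, plus strand), the inducible hexokinase of growing cells, measured 171, 173 and 178 CPM in the control and 201, 198 and 222 CPM with ATF3 siRNA. It was at 175, 157 and 154 with APOE siRNA, and the CXCL14 siRNA libraries held 175, 172 and 171. Only the ATF3 siRNA libraries lie apart, above the rest. HK2 rose with ATF3 siRNA by 0.25 ± 0.06 (edgeR adjusted p = 0.0118), and against the other siRNAs it was higher by 0.35 ± 0.06 (APOE, adjusted p = 0.000393) and 0.26 ± 0.06 (CXCL14, adjusted p = 0.00264; 0.16 with library size alone). With APOE siRNA it differed from the control by -0.10 ± 0.06 (adjusted p = 0.225) and with CXCL14 siRNA by -0.01 ± 0.06 (adjusted p = 0.908). A long non-coding gene on the opposite strand, AC019069.1, overlaps HK2 and holds 1.42% as many counts; it also rose with ATF3 siRNA (0.59 ± 0.20, adjusted p = 0.0452, called in 6 of 15 alternatives), and the counting is not stated to use strand.

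PFKP (ENSG00000067057, chromosome 10, 3066333 to 3137712, plus strand), a phosphofructokinase subunit and so part of the committed step, had the call closest to the threshold against the control. It stood at 331, 342 and 358 CPM in the control, 396, 365 and 400 with ATF3 siRNA, 315, 313 and 320 with APOE siRNA, and the CXCL14 siRNA libraries held 344, 374 and 363. The ATF3 siRNA libraries lie above, and the APOE siRNA libraries below, the control. PFKP rose with ATF3 siRNA by 0.17 ± 0.06, at the threshold (edgeR adjusted p = 0.04999). That call was lost without any 1 of control libraries 1, 2 and 3 (adjusted p = 0.17, 0.135 and 0.053) or ATF3 siRNA libraries 1 and 3 (0.117 and 0.133), with size factors (0.0577), library size alone (0.0852), no filter (0.216) or only the 2 groups compared (0.125). Against the control it was -0.12 ± 0.06 with APOE siRNA (adjusted p = 0.111) and 0.07 ± 0.06 with CXCL14 siRNA (0.349). The APOE siRNA difference passed with library size alone (0.00967) and limma on log2(FPKM + 1) (0.0488), and that of CXCL14 siRNA with library size alone (0.0408). The gap between the ATF3 and APOE siRNA groups was larger, 0.29 ± 0.06 (adjusted p = 0.000896). PFKP was lower with APOE than with CXCL14 siRNA (-0.19 ± 0.06, adjusted p = 0.0127; 0.0633 without CXCL14 siRNA library 2, and -0.31 with library size alone).

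The PFKFB enzymes, which set the level of fructose 2,6-bisphosphate, moved in opposite directions with APOE siRNA. PFKFB3 (ENSG00000170525, chromosome 10, 6144934 to 6254644, plus strand), the form known for its strong kinase activity, measured 61.2, 61.8 and 66.1 CPM in the control and 47.9, 49.0 and 51.7 with ATF3 siRNA. With APOE siRNA it was at 41.5, 43.1 and 38.5 CPM and with CXCL14 siRNA at 61.5, 61.5 and 63.5. The control and CXCL14 siRNA libraries overlap, the ATF3 siRNA libraries lie below them and the APOE siRNA libraries lowest. PFKFB3 fell by -0.62 ± 0.07 with APOE siRNA (1.53-fold lower, edgeR adjusted p = 1.41e-06) and by -0.35 ± 0.07 with ATF3 siRNA (adjusted p = 0.00136). The ATF3 and APOE siRNA groups themselves differed by 0.27 ± 0.07 (adjusted p = 0.00397). With CXCL14 siRNA PFKFB3 was at -0.02 ± 0.06 (adjusted p = 0.813) against the control.

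PFKFB4 (ENSG00000114268, chromosome 3, 48517684 to 48562015, minus strand), its relative, stood at 28.5, 25.8 and 27.8 CPM in the control and at 26.5, 27.0 and 27.5 with ATF3 siRNA, which overlap. It reached 43.3, 42.8 and 43.4 CPM with APOE siRNA and 34.6, 38.4 and 39.9 CPM with CXCL14 siRNA, with neither group overlapping any other. PFKFB4 rose by 0.66 ± 0.07 with APOE siRNA (1.58-fold, edgeR adjusted p = 2.01e-06) and by 0.46 ± 0.07 with CXCL14 siRNA (1.38-fold, adjusted p = 4.79e-05). Against the control it was at -0.02 ± 0.07 with ATF3 siRNA (adjusted p = 0.898). The APOE siRNA group was above the CXCL14 siRNA group by 0.20 ± 0.07 (adjusted p = 0.026), a call lost with library size alone (0.07, adjusted p = 0.364), no filter (0.139), DESeq2 (0.0612), without APOE siRNA libraries 1 (0.0597) or 3 (0.0558) and without CXCL14 siRNA library 1 (0.129). UCN2, a gene for a urocortin hormone, overlaps PFKFB4 on the same strand with 34.6% as many counts. UCN2 rose with APOE siRNA (0.93 ± 0.11, adjusted p = 4.01e-06) and fell with CXCL14 siRNA (-0.83 ± 0.12, adjusted p = 1.81e-05), where PFKFB4 rose.

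**Figure D2:**
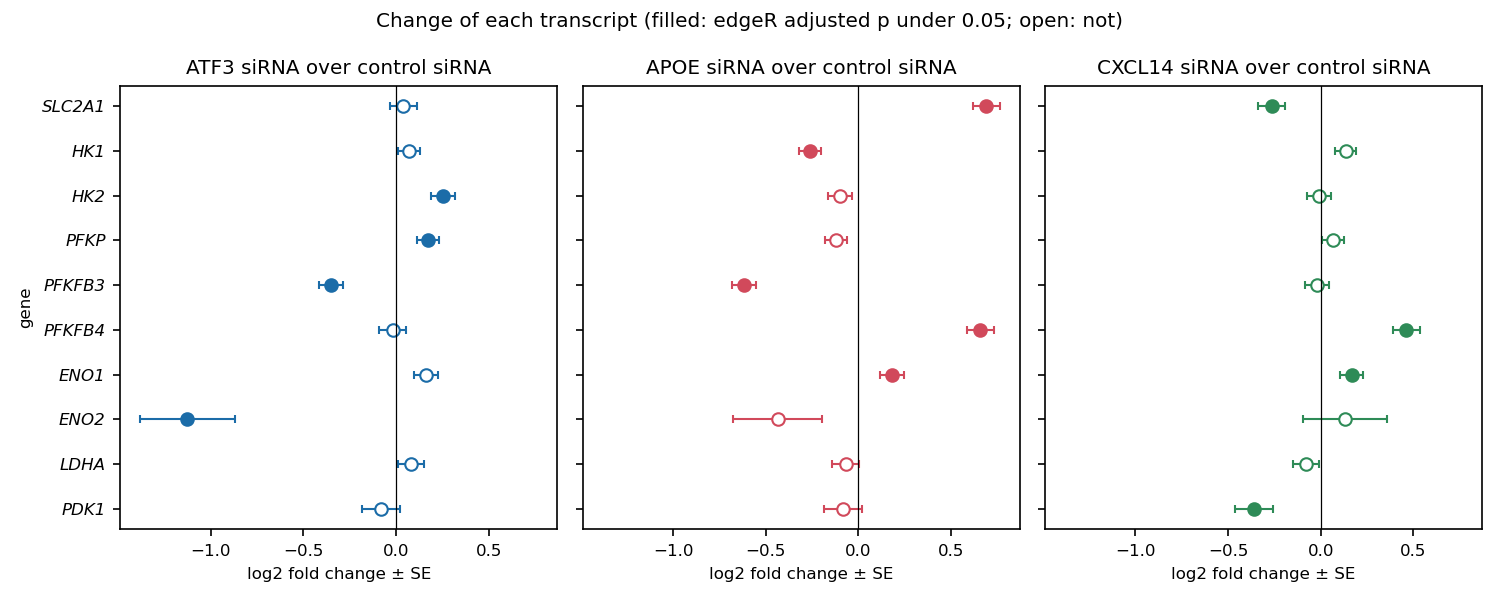
Log2 fold change ± SE of each of the 10 transcripts with ATF3, APOE and CXCL14 siRNA over the control (n = 3 libraries per group; filled points have an edgeR adjusted p under 0.05). The largest rises are those of SLC2A1 (0.69) and PFKFB4 (0.66) with APOE siRNA, and the largest falls those of ENO2 with ATF3 siRNA (-1.13) and PFKFB3 with APOE siRNA (-0.62).

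Of the enolases, which make phosphoenolpyruvate, ENO1 (ENSG00000074800, chromosome 1, 8861000 to 8879250, minus strand) was a little higher in all 3 targeting groups. It measured 1978, 2016 and 2032 CPM in the control, 2400, 2168 and 2166 with ATF3 siRNA, 2219, 2209 and 2406 with APOE siRNA, and the CXCL14 siRNA libraries held 2135, 2253 and 2371. Every targeting library lies above every control library, and the targeting groups overlap each other. ENO1 rose by 0.18 ± 0.06 with APOE siRNA (edgeR adjusted p = 0.0276) and by 0.17 ± 0.06 with CXCL14 siRNA (adjusted p = 0.0348), and did not pass with ATF3 siRNA at 0.16 ± 0.06 (adjusted p = 0.0859). The APOE siRNA call was lost without control libraries 1, 2 or 3 (0.0725, 0.0733 and 0.0587), without APOE siRNA library 3 (0.145), with library size alone (0.12, adjusted p = 0.0816), no filter (0.0866) and limma on log2(FPKM + 1) or log2(FPKM + 0.1) (0.0532 and 0.0572). The CXCL14 siRNA call was lost without control libraries 1, 2 or 3 (0.0887, 0.0882 and 0.0505), without CXCL14 siRNA libraries 2 or 3 (0.0796 and 0.144) and with no filter (0.09). Between the targeting groups, adjusted p for ENO1 was 0.824 to 0.95.

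ENO2 (ENSG00000111674, chromosome 12, 6913745 to 6923698, plus strand) rests on few counts, with 46, 57 and 46 in the control libraries and 21, 35 and 21 with ATF3 siRNA. These are 2.78, 3.47 and 2.85 CPM against 0.967, 1.97 and 1.27 CPM, with no overlap. With APOE siRNA it stood at 1.69, 2.57 and 2.49 CPM and with CXCL14 siRNA at 3.48, 3.43 and 3.07 CPM. ENO2 fell with ATF3 siRNA by -1.13 ± 0.25 (2.18-fold lower, edgeR adjusted p = 0.00543; -0.37 on the log2(FPKM + 1) scale, where a pseudocount of 1 exceeds the level). With APOE siRNA it was at -0.44 ± 0.24 (adjusted p = 0.156) and with CXCL14 siRNA at 0.13 ± 0.23 (adjusted p = 0.648) against the control. It was lower with ATF3 than with CXCL14 siRNA by -1.26 ± 0.25 (adjusted p = 0.00044; -0.42 on the log2(FPKM + 1) scale). LRRC23, a gene on the same strand that overlaps ENO2, holds 90.8% as many counts, and stood at 0.31 ± 0.22 with ATF3 siRNA (adjusted p = 0.346).

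A further pair of ENO2 differences sat at the threshold. It was lower with ATF3 than with APOE siRNA by -0.69 ± 0.26 (edgeR adjusted p = 0.0479), and these groups overlap. That call was lost without ATF3 siRNA libraries 1 (-0.45, adjusted p = 0.222) or 3 (0.107), without APOE siRNA libraries 2 (0.16) or 3 (0.12), and with library size alone (0.0589), no filter (0.0504), DESeq2 (0.0569), limma-voom (0.05001), limma on log2(FPKM + 1) (-0.20, adjusted p = 0.0534) or the 2 groups alone (0.102). It was lower with APOE than with CXCL14 siRNA by -0.57 ± 0.23 (adjusted p = 0.0495), a call lost without APOE siRNA libraries 1 (0.209) or 3 (0.0544), without CXCL14 siRNA libraries 1, 2 or 3 (0.109, 0.105 and 0.0613) and with DESeq2 (0.0558); on the log2(FPKM + 1) scale the difference was -0.23.

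At the end of the pathway, LDHA (ENSG00000134333, chromosome 11, 18394388 to 18408425, plus strand), the lactate dehydrogenase subunit that favours lactate, was called in none of the 6 comparisons without the replicate numbers in the fit; the closing section gives the fit with them. It measured 1088, 1017 and 969 CPM in the control, 1133, 1123 and 993 with ATF3 siRNA, 983, 911 and 1038 with APOE siRNA, and the CXCL14 siRNA libraries held 965, 931 and 1015. All groups overlap. Its differences from the control were 0.08 ± 0.07 (ATF3, edgeR adjusted p = 0.478), -0.07 ± 0.07 (APOE, 0.46) and -0.08 ± 0.07 (CXCL14, 0.364). Without ATF3 siRNA library 3, LDHA was higher with ATF3 than with APOE siRNA (adjusted p = 0.0325) and than with CXCL14 siRNA (0.0175), against 0.113 and 0.0719 with all libraries. Its processed pseudogene with most counts, LDHAP4, holds 0.0856% as many.

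PDK1 (ENSG00000152256, chromosome 2, 172555373 to 172608669, plus strand), which restrains pyruvate dehydrogenase, stood at 18.7, 15.2 and 16.5 CPM in the control, 16.1, 17.2 and 14.3 with ATF3 siRNA and 14.8, 16.8 and 16.01 with APOE siRNA. With CXCL14 siRNA it was at 12.8, 13.5 and 13.0 CPM, below every other library. It fell with CXCL14 siRNA by -0.36 ± 0.10 (edgeR adjusted p = 0.00662; -0.18 on the log2(FPKM + 1) scale). With ATF3 and APOE siRNA it was at -0.08 ± 0.10 against the control in both (adjusted p = 0.631 and 0.543). An antisense gene, AC078883.1, overlaps PDK1 with 7.78% as many counts and also fell with CXCL14 siRNA (-1.47 ± 0.30, adjusted p = 0.00059), and without strand its reads cannot be told apart from those of PDK1.

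The CXCL14 siRNA group was also below the other siRNAs in PDK1. The difference was 0.28 ± 0.10 for ATF3 over CXCL14 siRNA (edgeR adjusted p = 0.028) and 0.28 ± 0.10 for APOE over CXCL14 siRNA (adjusted p = 0.0286). The first was lost without ATF3 siRNA libraries 1 or 2 (0.0727 and 0.113) or CXCL14 siRNA libraries 1 or 3 (0.0724 and 0.0656), with no filter (0.0684), only the 2 groups (0.0555), library size alone (0.18, adjusted p = 0.158) and limma on log2(FPKM + 1) (0.13, 0.0805) or log2(FPKM + 0.1) (0.102). The second was lost without APOE siRNA libraries 2 or 3 (0.103 and 0.0614) or CXCL14 siRNA libraries 1 or 3 (0.074 and 0.0659), with library size alone (0.16, adjusted p = 0.217), no filter (0.0816), DESeq2 (0.0558) and limma on log2(FPKM + 1) (0.13, 0.0845) or log2(FPKM + 0.1) (0.105).

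In direct comparisons of the siRNAs, 7, 6 and 7 of the 10 genes were called. Between ATF3 and APOE siRNA 4 were higher and 3 lower with ATF3 siRNA, where 38.2% of tested genes were called, 20.3% higher and 17.9% lower, and ranges were apart for 6 of the 10, against 46.9% of tested genes. HK1, HK2, PFKP and PFKFB3 were higher with ATF3 siRNA, HK1 by 0.33 ± 0.06 (edgeR adjusted p = 0.000261), and SLC2A1 (-0.65 ± 0.07, adjusted p = 3.43e-06), PFKFB4 (-0.68 ± 0.07, adjusted p = 1.82e-06) and ENO2 were lower. Between ATF3 and CXCL14 siRNA 3 were higher and 3 lower with ATF3 siRNA, against 53.7% of tested genes called, 28.4% higher and 25.3% lower, and ranges were apart for 6, against 58.4%. PFKFB3 (-0.33 ± 0.06, adjusted p = 0.000432) and PFKFB4 (-0.48 ± 0.07, adjusted p = 3.2e-05) were both lower with ATF3 siRNA there, and HK1 differed by -0.06 ± 0.06 (adjusted p = 0.38; 0.0139 with library size alone). Between APOE and CXCL14 siRNA 3 were higher and 4 lower with APOE siRNA, against 55.5% of tested genes called, 28.9% higher and 26.6% lower, and ranges were apart for 7, against 61.8%. HK1 (-0.40 ± 0.06, adjusted p = 2.35e-05) and PFKFB3 (-0.60 ± 0.07, adjusted p = 9.25e-07) were among the lower, and HK2 differed by -0.09 ± 0.06 (adjusted p = 0.249; 0.00993 with library size alone).

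Pairs of isoenzymes were then compared within each library as the ratio of their FPKM. PFKFB3 made up 68.2 to 70.5% of the summed FPKM of PFKFB3 and PFKFB4 in the control libraries, 64.3 to 65.2% with ATF3 siRNA, 61.4 to 64.0% with CXCL14 siRNA and 47.0 to 50.1% with APOE siRNA. The ranges of the 4 groups do not overlap, and with APOE siRNA both transcripts were at near equal FPKM. The shares depend on the length used for each gene, whereas the change of a ratio between groups does not. On the log2 scale the ratio was lower than in the control by -1.28 with APOE siRNA, -0.48 with CXCL14 siRNA and -0.33 with ATF3 siRNA, each larger than the SD of 0.0876 in the control. HK2 held 45.1 to 47.2% of the summed FPKM of HK1 and HK2 in the control, 47.4 to 50.5% with ATF3 siRNA, 47.3 to 50.6% with APOE siRNA and 42.9 to 44.8% with CXCL14 siRNA. The log2 ratio of HK2 to HK1 thus differed from the control by 0.18, 0.16 and -0.14, with no overlap in any of the 3 comparisons. ENO2 never exceeded 0.211% of the summed FPKM of ENO1 and ENO2. Its log2 ratio to ENO1 was lower by -1.33 with ATF3 siRNA and -0.63 with APOE siRNA without overlap, and at -0.02 with CXCL14 siRNA, where the groups overlap. Exact two-sided permutation over libraries gives p = 0.1, the smallest that 3 against 3 allows, for 8 of these 9 differences, and p = 1 for ENO2 over ENO1 with CXCL14 siRNA.

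**Figure D3:**
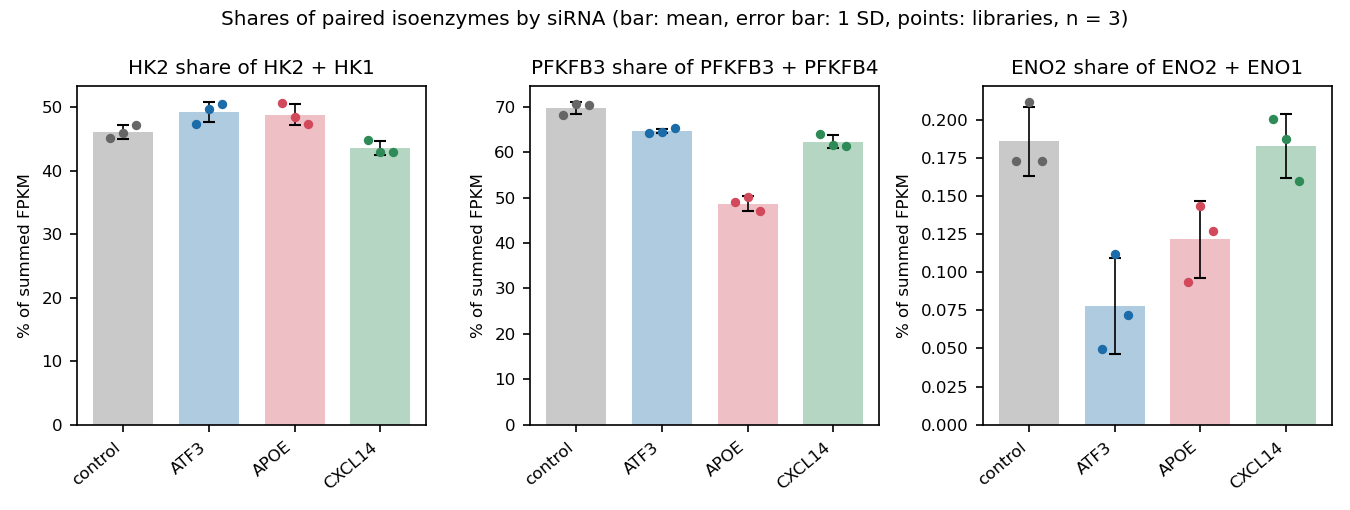
Share of HK2, PFKFB3 and ENO2 in the summed FPKM of each isoenzyme pair, in percent (bar, mean; error bar, 1 SD; points, the 3 libraries of a group; axes from 0). The PFKFB3 share averages 69.7% in the control and 48.7% with APOE siRNA, the HK2 share 46.0% and 48.8%, and the ENO2 share is 0.186% in the control and 0.0779% with ATF3 siRNA.

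The other enzymes of glycolysis were a list of 21 genes, of which 15 were tested. With APOE siRNA 10 rose and 0 fell in edgeR, where 22.3% of tested genes rose, and the list's median was 0.23. GPI, which makes fructose 6-phosphate, rose by 0.50 ± 0.06 (edgeR adjusted p = 9.02e-06), TPI1, the triose phosphate isomerase, by 0.41 ± 0.06, PGAM1, a phosphoglycerate mutase, by 0.36 ± 0.06 and PFKL, the liver-type phosphofructokinase, by 0.38 ± 0.07. With CXCL14 siRNA 7 rose and 3 fell, with a median of 0.18, against 27.4% and 28.4% of tested genes. ADPGK, an ADP-dependent glucokinase, rose there by 0.51 ± 0.07, PFKM, the muscle-type phosphofructokinase, by 0.46 ± 0.07, ALDOC, an aldolase, by 0.58 ± 0.11 and GPI by 0.31 ± 0.06. With ATF3 siRNA 4 rose and 1 fell, with a median of 0.13, against 11.2% and 9.14%. PGK1, a kinase that makes ATP in glycolysis, rose by 0.23 ± 0.06, ADPGK by 0.23 ± 0.07 and ALDOA by 0.32 ± 0.09, and BPGM, which makes 2,3-bisphosphoglycerate, fell by -0.41 ± 0.10. ALDOA overlaps the annotated gene AC093512.2 on the same strand, so its level depends on how shared reads were assigned. The ATF3 siRNA calls of ADPGK and ALDOA held in 9 and 14 of 16 alternatives.

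Among 14 other glucose transporters 8 were tested. SLC2A3, a high-affinity transporter known from neurons, stood at 33.1 ± 1.41 CPM in the control, 41.3 ± 2.73 with ATF3 siRNA, 49.2 ± 0.619 with APOE siRNA and 96.0 ± 3.98 CPM with CXCL14 siRNA, so that its order across the groups was not that of SLC2A1. It rose in all 3 comparisons, by 0.32 ± 0.07, 0.57 ± 0.07 and 1.54 ± 0.07 (edgeR adjusted p = 0.00408, 5.04e-06 and 3.61e-11). Its near copy SLC2A14 holds 0.0979% as many counts. Per length, SLC2A3 stood at 5.30 FPKM against 152 FPKM for SLC2A1 in the control and at 15.4 against 126 FPKM with CXCL14 siRNA. SLC2A12 (1.25 ± 0.13) and SLC2A11 (0.97 ± 0.19) also rose with CXCL14 siRNA, where 5 of 8 rose and 0 fell with a median of 0.72, against 27.4% of tested genes higher and 28.4% lower. SLC2A9, a urate and hexose transporter, rose by 0.36 ± 0.07 with ATF3, 0.25 ± 0.08 with APOE and 0.48 ± 0.07 with CXCL14 siRNA, and SLC2A13, a myo-inositol transporter, fell with APOE siRNA by -0.98 ± 0.13. In edgeR 3 of 8 rose and 2 fell with APOE siRNA, SLC2A6 by -0.37 ± 0.09, and 3 rose and 0 fell with ATF3 siRNA, SLC2A6 by 0.27 ± 0.09; medians were 0.31 and 0.29, and 44.8% and 20.4% of all tested genes were called. The call of SLC2A6 with ATF3 siRNA held in 7 of 16 alternatives, and that of SLC2A9 with APOE siRNA in 14 of 16. The 8 tested include SLC2A5, which averaged 0.122 CPM in the control, below the 0.135 to 0.185 CPM that a count of 0 would allow. It averaged 0.334 CPM with ATF3, 0.293 with APOE and 0.78 with CXCL14 siRNA, so its fold changes rest on few counts.

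Genes of pyruvate and lactate handling, 15 tested of 16, were called in both directions with APOE siRNA (4 rose, 4 fell, median -0.04) and CXCL14 siRNA (6 and 4, median 0.08), where 44.8% and 55.8% of all tested genes were called. With ATF3 siRNA 4 rose and 0 fell in edgeR, with a median of 0.18, against 11.2% of tested genes higher and 9.14% lower. PDK2, of the same family as PDK1, rose from 3.10 ± 0.433 CPM in the control to 7.43 ± 0.639 with APOE siRNA (1.26 ± 0.17, edgeR adjusted p = 1.43e-05) and to 10.03 ± 1.19 CPM with CXCL14 siRNA (1.69 ± 0.16, adjusted p = 2.06e-07), where PDK1 fell. PDP1, the phosphatase that removes the phosphate the PDK enzymes add, fell with APOE siRNA (-0.44 ± 0.08) and CXCL14 siRNA (-0.43 ± 0.08) and rose with ATF3 siRNA (0.26 ± 0.08). SLC16A1, a lactate and pyruvate carrier, rose with APOE siRNA by 0.41 ± 0.06. PDHX, a structural subunit of pyruvate dehydrogenase, rose with APOE siRNA (0.41 ± 0.07) and ATF3 siRNA (0.24 ± 0.07) and fell with CXCL14 siRNA (-0.56 ± 0.07). PDHB rose by 0.41 ± 0.09 with CXCL14 siRNA, and PDHA1 (0.28 ± 0.06) and BSG (0.23 ± 0.07), a chaperone of lactate carriers, rose with ATF3 siRNA. With ATF3 siRNA the calls of PDP1, PDHX and BSG held in 7, 10 and 9 of 16 alternatives.

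Of 13 regulators, 10 were tested, with 1 up and 2 down for ATF3 siRNA (median 0.10), 4 and 2 for APOE siRNA (0.08) and 5 and 2 for CXCL14 siRNA (0.21). Of all tested genes 20.4%, 44.8% and 55.8% were called in these comparisons. ARRDC4, an arrestin that restrains glucose uptake, rose with all 3 siRNAs, by 0.78 ± 0.09 with ATF3, 1.15 ± 0.09 with APOE and 0.63 ± 0.09 with CXCL14 siRNA. ARNT, the partner of the hypoxia-inducible factors, fell with all 3, by -0.33 ± 0.08, -0.80 ± 0.08 and -0.59 ± 0.08 in the same order, the first called in 15 of 16 alternatives. TXNIP, a relative of ARRDC4 that also restrains glucose uptake, fell with APOE siRNA (-0.40 ± 0.10, edgeR adjusted p = 0.00334), and TIGAR, which degrades fructose 2,6-bisphosphate, rose there (0.69 ± 0.15). MLXIP, a glucose-sensing transcription factor, fell with ATF3 siRNA (-0.68 ± 0.08). PFKFB2, a relative of PFKFB3 and PFKFB4, rose with CXCL14 siRNA by 0.31 ± 0.09, as did MLXIPL, a relative of MLXIP, by 1.89 ± 0.45.

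**Figure D4:**
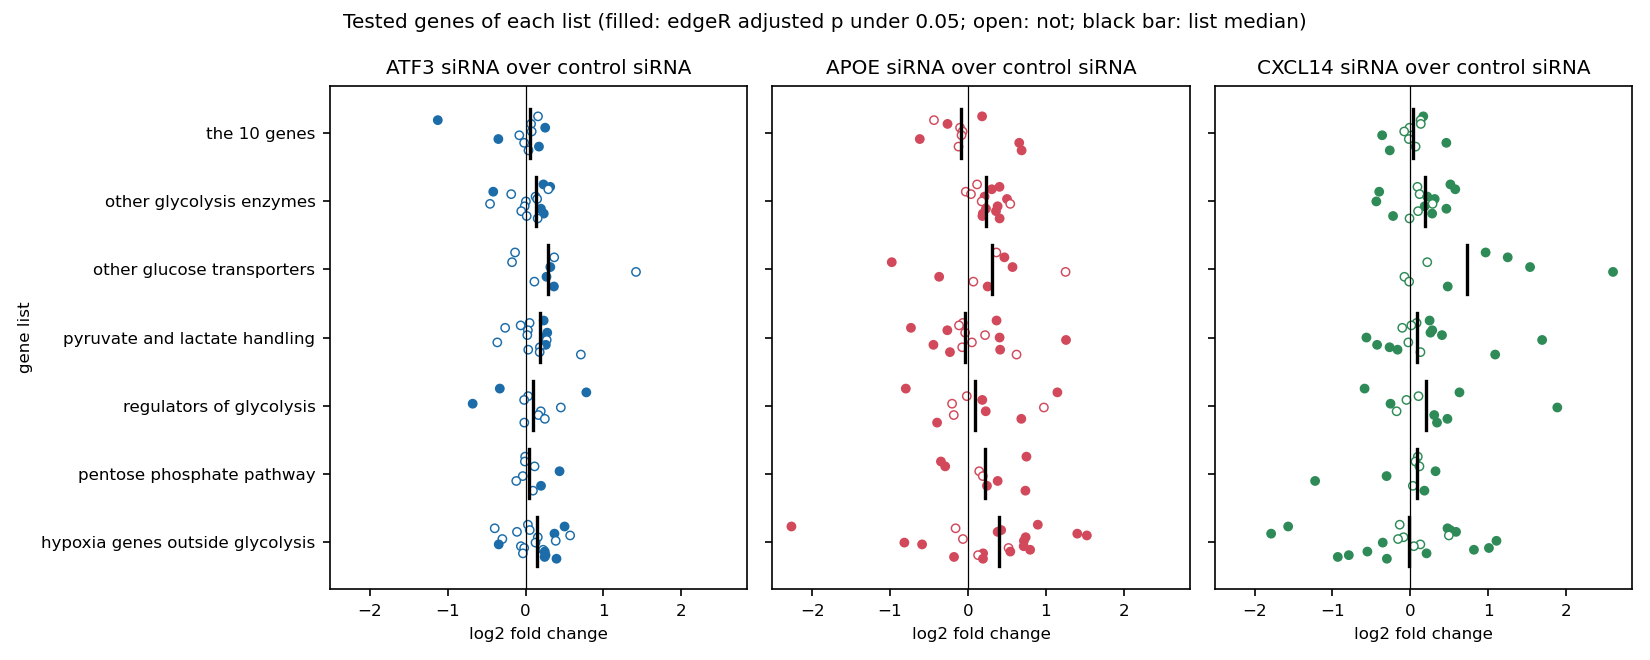
Log2 fold changes with ATF3, APOE and CXCL14 siRNA over the control for the tested genes of 7 lists (1 point per gene, filled at an edgeR adjusted p under 0.05; the black bar is the list median). The medians of the other glycolysis enzymes are 0.13, 0.23 and 0.18 and those of the 10 genes 0.05, -0.09 and 0.03.

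The genes whose levels followed each of the 10 most closely were taken by Pearson's r of log2 CPM over the 12 libraries, among 10077 protein-coding genes outside the lists with a mean of at least 5 CPM. The 12 points are 4 groups of 3 and share library scaling, so r mostly describes the pattern of group means. SLC2A1 was followed by DCBLD1 (r = 0.981), DVL2 (0.979) and TGFBI (0.978), and PFKFB4 by TMEM189 (r = 0.986), KDM4B (0.985) and MTFR1L (0.975). HK1 was followed by OPA3 (0.979), HK2 by HOOK2 (0.966), PFKP by CCAR2 (0.96) and PFKFB3 by CDS2 (0.97). The closest genes were RPL7A for ENO1 (0.909), KBTBD8 for ENO2 (0.936), DDX1 for LDHA (0.937) and RIOK2 for PDK1 (0.936). Among the 10 themselves, r was 0.81 for HK2 with PFKP and for HK1 with PFKP, -0.92 for SLC2A1 with HK1, and -0.84 for SLC2A1 with PFKFB3.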

How the data were processed

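Poly-A RNA of 12 libraries was sequenced in bulk. The authors deposited raw counts per gene and FPKM per gene and library; the submitters' processing notes list the aligner HISAT2 2.0.5, the counter featureCounts 1.5.0-p3 and the build hg38, and the annotation and strand setting are not given in the sources used here. The deposited FPKM equal count over gene length and a library constant within 0.1 percent, in each library, for genes with at least 10 counts. A further deposited table, which repeats the FPKM with group means, was not used here. Columns were mapped to samples by siRNA prefix and replicate number, and 0 columns were left out.

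Counts were filtered with filterByExpr, which left 14920 genes with 99.9% of the counts, scaled by TMM and fitted in edgeR 4.0.16 (R 4.3.3; glmQLFit, glmQLFTest) with 1 term per group over all 12 libraries. The 6 comparisons were adjusted by Benjamini-Hochberg over all genes tested; SE is the log2 fold change over the square root of F. The fit was tested on simulated data. Alternatives were DESeq2's size factors within edgeR, scaling by library size alone, all genes unfiltered, a filter at 1 CPM in 3 libraries with a mean of 50 counts, DESeq2 1.42.0, limma-voom and limma 3.58.1 on log2(FPKM + 1) or log2(FPKM + 0.1), the 2 groups alone, a replicate block and each library left out. Named genes were the 10, the siRNA targets, up to 4 called genes per other list and comparison with the control by smallest adjusted p (part of them is printed, and 1 is not reported here), and the 3 closest genes by r; overlapping genes were added after their values were seen. The 10 genes and the lists were chosen with earlier results of these data known. Replicate numbers were checked as pairs by the correlation of deviations from group means; for APOE against CXCL14 siRNA all 3 pairs exceeded 0.1 (0.467, 0.246 and 0.484). Promoter sequences are from RefSeq.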

Additional observations from a re-analysis of the deposited data

How the results depend on the processing

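Every call against the control of SLC2A1, HK1, HK2, PFKFB3, PFKFB4, ENO2 and PDK1 held under each alternative run; the calls of PFKP and ENO1 did not, as given beside them. The stricter filter drops ENO2, which has no value there. With 1 library left out, 1916 to 2729 genes were called for ATF3 siRNA against control, from 3041 (1916 without control replicate 1). Of the 10, 4 to 6 were called for APOE against CXCL14 siRNA with 1 library left out (4 without APOE replicate 3 or CXCL14 replicate 1) and 4 with DESeq2, from 7.

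Signs turned only for differences that were not called, and the cause was not tested. For APOE against CXCL14 siRNA, ENO1 and LDHA went to -0.107 and -0.114 with library size alone, -0.00018 and -0.0064 with size factors, -0.0033 and -0.0097 with the stricter filter, -0.00021 and -0.0065 with DESeq2, -0.00046 and -0.0079 with limma on log2(FPKM + 1), and -0.00046 and -0.0080 on log2(FPKM + 0.1). Library size alone moved the median of all genes in that comparison from 0.01 to -0.11, and for ATF3 against CXCL14 siRNA from 0.00 to -0.10. Against the control, library size alone and the stricter filter put HK2 with CXCL14 siRNA at 0.053 and 0.012 and PFKFB3 at 0.043 and 0.0017, and library size alone put SLC2A1 with ATF3 siRNA at -0.0032. PDK1 for ATF3 against APOE siRNA was -0.012 with the stricter filter. Library size alone also moved the share of calls that were higher from 55.2% to 44.0% for ATF3 siRNA against control, 52.9% to 41.5% for ATF3 against CXCL14 siRNA and 52.0% to 39.6% for APOE against CXCL14 siRNA; it went from 49.8% to 41.3% for APOE and 49.1% to 55.7% for CXCL14 siRNA against control, and from 53.1% to 56.0% for ATF3 against APOE siRNA.

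With 1 library left out, the log2 fold changes of these ranged as follows. Against the control with ATF3 siRNA they were -0.028 to 0.084 for SLC2A1, -0.059 to 0.012 for PFKFB4 and -0.147 to 0.0039 for PDK1; PDK1 with APOE siRNA ranged from -0.150 to 0.00079, and with CXCL14 siRNA HK2 from -0.024 to 0.0055 and PFKFB3 from -0.043 to 0.015. Between siRNAs they were -0.066 to 0.021 (ENO1) and -0.058 to 0.069 (PDK1) for ATF3 against APOE, -0.064 to 0.033 (ENO1) for ATF3 against CXCL14, and -0.021 to 0.055 (ENO1) and -0.032 to 0.060 (LDHA) for APOE against CXCL14. The log2 ratio of ENO2 to ENO1 with CXCL14 siRNA ranged from -0.096 to 0.072.

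Libraries with the same replicate number deviated together in part: 12 of 18 pairs had r over 0.1, and all ranged from -0.0668 to 0.497. Of the 12 libraries 9 correlated best with their own number. By number, r was 0.0899 to 0.467 for replicate 1, -0.0668 to 0.246 for replicate 2 and 0.259 to 0.497 for replicate 3. The labels state no shared source, and the cause was not tested. Every pair was over 0.1 for APOE against CXCL14 siRNA alone, where the replicate block changed no call of the 10; in the other 5 comparisons at least 1 pair was not, and the numbers were not taken as a pairing. With the replicate block 5, 5 and 5 of the 10 were called against the control for ATF3, APOE and CXCL14 siRNA and 7, 7 and 7 between siRNAs; genes called were 4138, 7436 and 8970, and 6618, 8712 and 8949. ENO1 with ATF3 siRNA (edgeR adjusted p = 0.0495), HK1 with CXCL14 siRNA (0.0377) and LDHA for ATF3 against CXCL14 siRNA (0.0461), which missed the threshold without it, passed with the replicate block. ENO2 rests on 21 to 68 counts per library.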

Other observations

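The pentose phosphate pathway branches from glucose 6-phosphate and makes NADPH and ribose phosphate. All 8 of its listed genes were tested. Of all tested genes 44.8% were called with APOE siRNA, 55.8% with CXCL14 siRNA and 20.4% with ATF3 siRNA, and the counts here are to be read against these shares. With APOE siRNA 4 rose and 2 fell, with a median log2 fold change of 0.22: TKT, a transketolase, rose by 0.74 ± 0.07 (edgeR adjusted p = 2.17e-07) and RPIA, which makes ribose 5-phosphate, by 0.38 ± 0.09, and H6PD, an enzyme of the endoplasmic reticulum, fell by -0.35 ± 0.08. With CXCL14 siRNA 2 rose and 2 fell (median 0.08): RPIA fell by -1.22 ± 0.09 (adjusted p = 1.24e-08) and RPE by -0.31 ± 0.09, and PGLS (0.32 ± 0.10) and TKT (0.18 ± 0.07) rose. With ATF3 siRNA 2 rose and 0 fell in edgeR (median 0.05), PGLS by 0.44 ± 0.10 and TALDO1 by 0.20 ± 0.07. The CXCL14 siRNA calls of PGLS and TKT held in 13 and 11 of 16 alternative fits, and the ATF3 siRNA call of TALDO1 in 5.

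Among 20 hypoxia-responsive genes outside glycolysis, all tested, 12 rose and 4 fell with APOE siRNA (median 0.40), 7 rose and 7 fell with CXCL14 siRNA (median -0.02) and 6 rose and 1 fell with ATF3 siRNA (median 0.14), against 44.8%, 55.8% and 20.4% of all tested genes called in either direction. CA12, a carbonic anhydrase, rose with APOE siRNA (1.40 ± 0.08, edgeR adjusted p = 1.32e-09) and ATF3 siRNA (0.37 ± 0.08) and fell with CXCL14 siRNA (-1.79 ± 0.08, adjusted p = 6.74e-11). ANGPTL4, a secreted inhibitor of lipoprotein lipase, fell with APOE siRNA (-2.27 ± 0.14) and CXCL14 siRNA (-1.57 ± 0.13) and rose with ATF3 siRNA (0.50 ± 0.12). With APOE siRNA ADM, the peptide adrenomedullin, rose by 0.90 ± 0.07 and DDIT4, an inhibitor of mTOR signalling, by 0.74 ± 0.06. With CXCL14 siRNA the collagen-modifying enzymes PLOD2 (-0.93 ± 0.07) and P4HA2 (-0.79 ± 0.07) fell.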
